A study of Danio rerio with 40 samples.

Results

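The Six-family, Sox, Pax, Lhx, Irx, Zic and Dlx genes, which encode developmental transcription factors, were followed in whole zebrafish embryos and larvae. Members were taken by name: a gene belonged if its symbol began with 1 of these 7 family names followed by a digit. The rule used no measured value and found 79 of the 14267 genes in the count table: 22 Sox, 13 Six-family, 11 Irx, 9 Lhx, 9 Pax, 8 Dlx and 7 Zic genes, spread over 25 chromosomes. All animals were Segrest wild type, and all were kept in medium with 0.003% phenylthiourea, which blocks pigment formation. From 24 h after fertilization they received either 300 pM calcitriol (1α,25-dihydroxyvitamin D3, the hormone form of vitamin D) in ethanol or ethanol alone as vehicle, with the medium renewed every 24 h. They were frozen at 2, 4, 6 or 7 days post fertilization (dpf), and each RNA sample came from a set of 25 to 30 whole animals, so that every tissue contributed to every value. The labels also describe larvae exposed at 6 dpf for 24 h without marking any library as theirs, and how long the 6 and 7 dpf animals were exposed is thus uncertain.

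These factors act early. Sox proteins bind DNA through an HMG box, and the B group among them (sox1, sox2, sox3 and sox19 genes) keeps neural progenitors from differentiating, while the C group (sox4 and sox11 genes) is active in newly formed neurons. Pax, Lhx, Irx, Dlx and Six-family proteins carry other DNA-binding domains, most of them a homeodomain, and Zic proteins carry zinc fingers; together they divide the neural plate, the eye, the placodes, the pharyngeal arches and the muscle precursors into regions, and many are later restricted to a few kinds of neuron or sense cell.

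Vehicle and calcitriol at each of the 4 ages gave 8 groups, with 5 libraries in each and 40 in all. Library totals ranged from 67235165 to 214502251 counts. In every group 1 library, vehicle replicate 1 and calcitriol replicate 5, had no more than 81298182 counts, when all others had 106850887 or more; this is the shallow library below. Levels are CPM (counts scaled to a common library size) after TMM scaling, and the 5 values of a group are given in the order of replicates 1 to 5. After a log2 fold change, ± gives the standard error, with n = 5 libraries against 5. A gene is called changed where the adjusted p of edgeR's quasi-likelihood test over all genes was below 0.05. Nothing in the labels ties the 5 libraries to separate clutches, and the p-values therefore reflect just the spread among libraries, part of which may be technical. Some libraries of a group were also far closer to each other than to the rest, as given with the processing. The known response to the hormone was checked first: cyp24a1, which encodes the enzyme that breaks down calcitriol and is its best known target, was 6.77-, 7.22-, 7.97- and 5.77-fold higher with calcitriol at 2, 4, 6 and 7 dpf (adjusted p = 0.0281, 0.0981, 0.000159 and 3.79e-06), and its treated and vehicle libraries did not overlap at any age.

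The question of the vehicle series is which members declined and which persisted as the embryo became a larva. Between 2 and 7 dpf, 70 of the 79 members fell, 2 rose and 7 were not called. Over all 13422 genes tested in that comparison 74.9% were called, 37.1% lower and 37.7% higher. The median log2 fold change was -1.20 over the members and 0.01 over all genes. At least a 2-fold fall was called for 52 members, against 16.5% of all genes. For 63 members every 7 dpf library lay below every 2 dpf library, against 29.7% of all genes. Together the members made up 0.444 to 0.505% of all counts in the vehicle libraries at 2 dpf and 0.163 to 0.199% at 7 dpf. In whole animals, fewer cells of a type and less RNA per cell cannot be told apart.

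**Figure D1:**
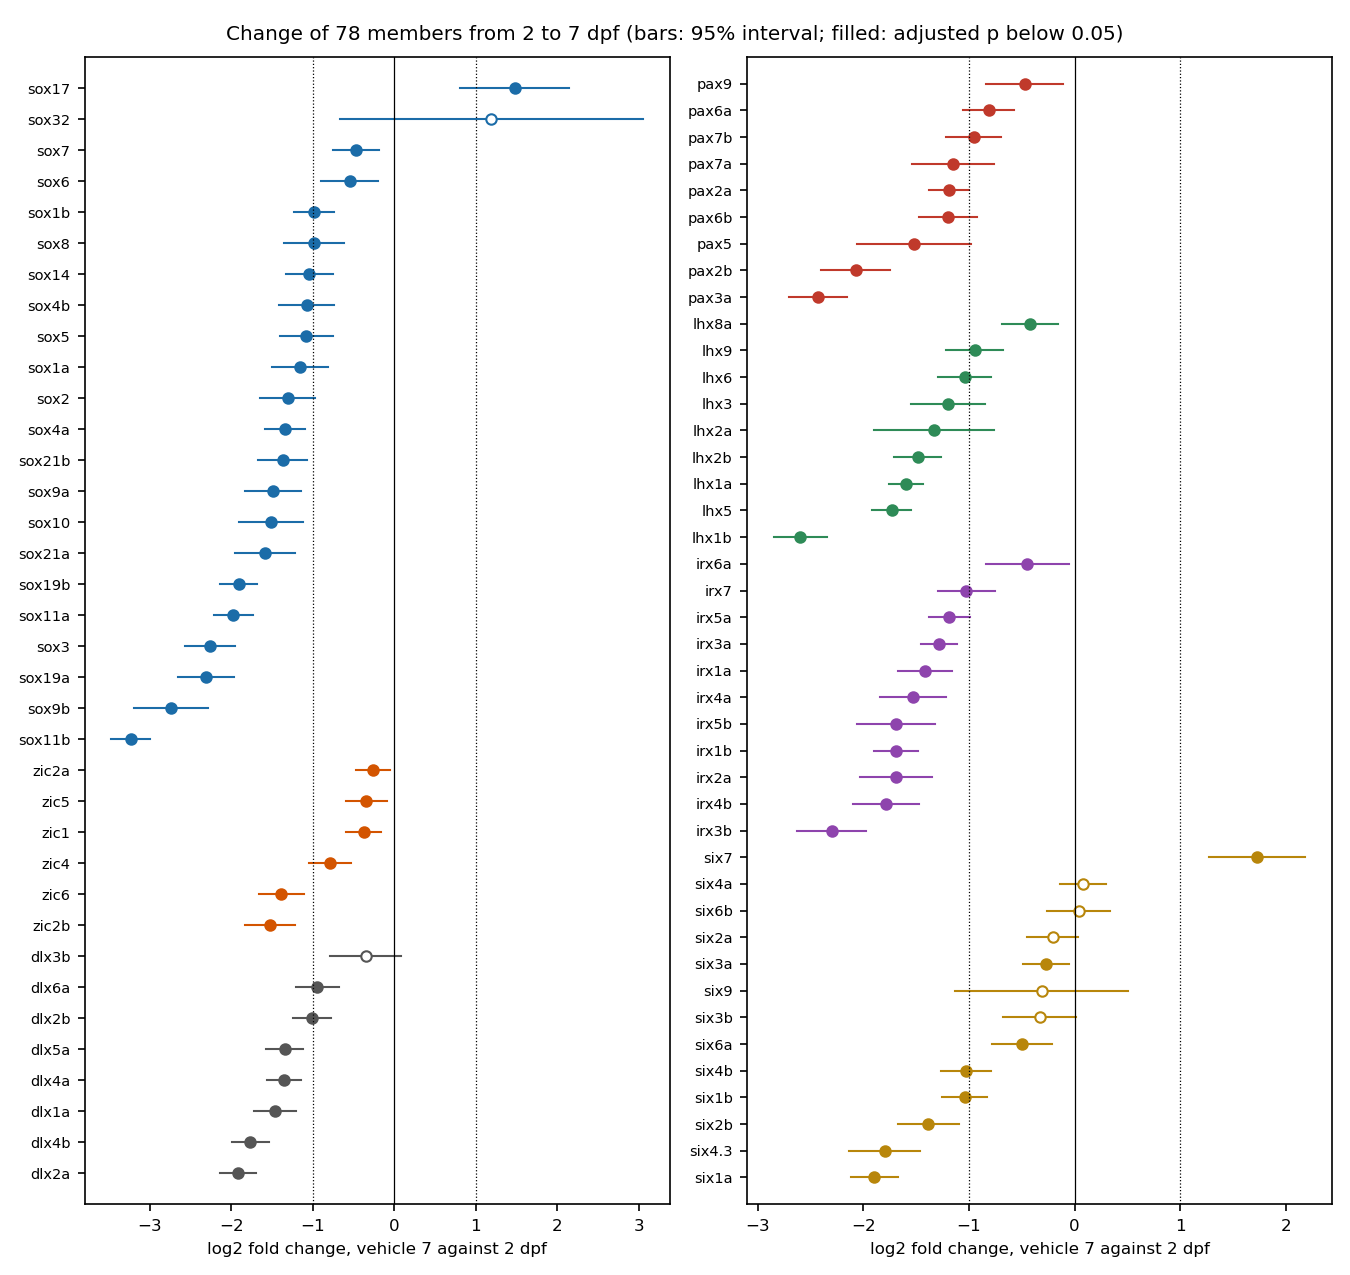
Log2 fold change of 78 members between vehicle libraries at 7 and 2 dpf (horizontal axis), with bars for the 95% interval and filled points for an adjusted p below 0.05; colours mark the families and dotted lines a 2-fold change. Nearly all points lie left of 0, from -3.23 for sox11b to 1.73 for six7. For 6 of the 13 Six-family genes (46.2%, against 45.6% of all genes) the whole interval lies between the dotted lines.

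In the Sox family 20 of 22 members were lower at 7 dpf, with a median of -1.33, and sox11b and sox9b had the largest falls of all 79 members. The C-group gene sox11b (chromosome 20) read 674, 443, 489, 571 and 523 CPM in vehicle at 2 dpf and 60.2, 54.1, 57.7, 62.2 and 56.4 CPM at 7 dpf. The ages did not come near each other, and the lowest early library was several times the highest late one. The fall was 9.40-fold, a log2 fold change of -3.23 ± 0.11 (adjusted p = 1.65e-10). Its paralog sox11a fell 3.93-fold, by 1.98 ± 0.11 on the log2 scale, from 284 ± 42.0 to 73.2 ± 5.94 CPM (mean ± SD, n = 5).

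Next among the Sox genes were sox9b, which is required for neural crest and cartilage, and sox19a, an early neural progenitor gene of the B group. Expression of sox9b was 149, 113, 117, 231 and 212 CPM at 2 dpf and 26.3, 20.8, 19.6, 29.9 and 28.0 CPM at 7 dpf. The early libraries spread widely among themselves, yet none reached down to the late ones, and the change was -2.74 ± 0.21 (adjusted p = 1.78e-07). For sox19a the change was -2.31 ± 0.16 (adjusted p = 5.80e-08), from 141 ± 26.7 to 28.8 ± 5.99 CPM. The other B-group member with a change beyond -2 was sox3, at -2.26 ± 0.14. The most highly expressed Sox genes by CPM, sox4a and sox4b, fell less, by 1.35 ± 0.11 and 1.08 ± 0.16 on the log2 scale.

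A single Sox gene rose. The endoderm and vessel regulator sox17 stood at 0.264, 0.649, 0.301, 0.326 and 0.187 CPM in vehicle at 2 dpf and at 0.988, 0.957, 0.976, 1.26 and 0.737 CPM at 7 dpf. All late libraries were above all early ones, with all early values below 1 CPM, and the change was 1.48 ± 0.31 (adjusted p = 0.000818). Its zebrafish relative sox32, which is required for endoderm formation, was too scarce to judge: its mean over all 40 libraries was 0.0807 CPM, it did not pass the count filter for calcitriol against vehicle at 2 and 4 dpf, and with age its estimate of 1.19 carried an error of 0.86.

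All 9 Pax members fell, with a median of -1.19. The deepest fall belonged to pax3a (chromosome 2), which marks dorsal neural tube, neural crest and muscle progenitors: it read 19.5, 14.9, 16.7, 21.5 and 21.2 CPM at 2 dpf and 2.99, 3.23, 3.86, 3.52 and 4.03 CPM at 7 dpf. Every library of 7 dpf was far below the lowest early one, and the change was -2.43 ± 0.13 (adjusted p = 5.58e-09). Both pax2 copies, which act at the midbrain-hindbrain boundary and in the kidney and ear, fell, pax2b with a change of -2.07 ± 0.15 and pax2a with one of -1.19 ± 0.09. The boundary gene pax5 changed by -1.52 ± 0.25. The eye, brain and islet gene pax6a fell from 88.0 ± 13.8 to 50.7 ± 3.24 CPM, a change of -0.81 ± 0.11 (adjusted p = 2.49e-05). The smallest Pax change was that of pax9, a gene of the pharyngeal pouches, whose path is described with the steps between ages. Its call between 2 and 7 dpf was lost in 4 of 19 other settings of the fit.

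All 9 Lhx members fell too, with a median of -1.33. The LIM-homeodomain genes lhx1a, lhx1b and lhx5, which act in interneurons and, for lhx1, in the kidney anlage, led this family. For lhx1b the values were 29.3, 22.2, 24.3, 26.3 and 21.1 CPM at 2 dpf against 3.54, 4.69, 4.32, 4.32 and 3.74 CPM at 7 dpf. The groups stood far apart, and the change was -2.60 ± 0.12 (adjusted p = 1.16e-09). The changes of lhx5 and lhx1a were -1.73 ± 0.08 and -1.59 ± 0.07. A smaller change was seen in lhx9, a gene of forebrain and hindbrain neurons, at -0.95 ± 0.12, and the smallest in lhx8a, a gene of ventral forebrain neurons, at -0.42 ± 0.12 (adjusted p = 0.00653).

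The Irx family, homeodomain factors that pattern the neural plate, the retina and the heart, fell in all 11 members, with a median of -1.53. The largest change was that of irx3b, which read 48.6, 40.5, 37.1, 61.5 and 61.7 CPM at 2 dpf and 12.2, 9.44, 9.24, 10.1 and 10.4 CPM at 7 dpf. The groups stood far apart, although the early libraries varied more than the late ones, and the change was -2.30 ± 0.15 (adjusted p = 4.13e-08). The next changes were those of irx4b, at -1.79 ± 0.14, and irx2a, at -1.69 ± 0.16. The 2 members highest in CPM, irx5a and irx3a, fell from 83.6 ± 7.46 to 37.2 ± 2.76 CPM and from 74.5 ± 5.71 to 31.0 ± 0.995 CPM. Irx6a, at -0.45 ± 0.18, was the Irx gene that changed least, and its call was lost in 8 of 19 other settings of the fit.

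The Dlx family, which acts in inhibitory forebrain neurons, in the pharyngeal arches and in the ear and olfactory placodes, fell in 7 of 8 members, with a median of -1.35. The forebrain and arch gene dlx2a went from 30.5, 28.8, 29.7, 30.6 and 30.1 CPM to 6.24, 7.96, 8.17, 8.43 and 9.26 CPM. Both sets were narrow and far apart, and the change was -1.92 ± 0.10 (adjusted p = 4.94e-09). The placode and arch gene dlx4b followed at -1.77 ± 0.10 and the forebrain gene dlx1a at -1.47 ± 0.12. The member that was not called was dlx3b, the neighbour of dlx4b and its partner in the ear placode, at -0.35 ± 0.20 with a 95% interval from -0.80 to 0.09.

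Zic and Six-family genes changed less than the other families. A member counted as held within 2-fold where the 95% interval of its log2 change lay between -1 and 1, whether or not it was called. This held for 16 of the 79 members (20.3%), against 45.6% of all genes. Of the 13 Six-family members 6 (six2a, six3a, six3b, six4a, six6a and six6b) and in the Zic family 4 of 7 (zic1, zic2a and zic5 among them) were among the 16, as were sox6, sox7 and 1 gene each of the Dlx, Irx, Lhx and Pax families (dlx3b, irx6a, lhx8a and pax9). The shares held, 46.2% of the Six-family and 57.1% of the Zic genes, were thus near or above the 45.6% of all genes. Of the 16, 11 were also called lower. The 2 members six9 and sox32 were neither called nor held.

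All 7 Zic genes, which act in the dorsal neural tube and the cerebellum, were called lower, with a median of -0.40. The cerebellar gene zic1 read 82.9, 100.1, 90.0, 90.8 and 93.6 CPM at 2 dpf and 55.9, 75.3, 72.2, 77.2 and 76.2 CPM at 7 dpf. The groups did not overlap, but the change was only -0.38 ± 0.10 (adjusted p = 0.00415). For zic2a it was -0.26 ± 0.10 (adjusted p = 0.0245), while its paralog zic2b changed by -1.53 ± 0.14. The remaining larger Zic changes were those of zic6, at -1.39 ± 0.13, and zic4, at -0.79 ± 0.12.

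The Six-family genes were divided: 7 of 13 members fell, 1 rose and 5 were not called, with a median of -0.33. The muscle and placode gene six1a fell by 1.89 ± 0.10 on the log2 scale, six4.3 by 1.80 ± 0.16 and six2b by 1.38 ± 0.13, while six4a, a gene of the same tissues as six1a, was not called, at 0.08 ± 0.10. Six7, which in zebrafish controls opsin genes of cone photoreceptors, rose (chromosome 7): it read 25.2, 56.3, 39.7, 32.8 and 38.6 CPM at 2 dpf and 97.5, 99.6, 131, 152 and 168 CPM at 7 dpf. Every late library was above every early one, and the change was 1.73 ± 0.21 (adjusted p = 9.62e-06). The eye gene six6b, which acts with six7 on cone opsin genes, was at 23.0 ± 3.43 and 23.9 ± 4.08 CPM, a change of 0.04 ± 0.14 with a 95% interval from -0.26 to 0.33. The forebrain and eye gene six3b was at 35.7 ± 6.91 and 28.8 ± 5.26 CPM, a change of -0.33 ± 0.16 that was not called (adjusted p = 0.0745).

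**Figure D2:**
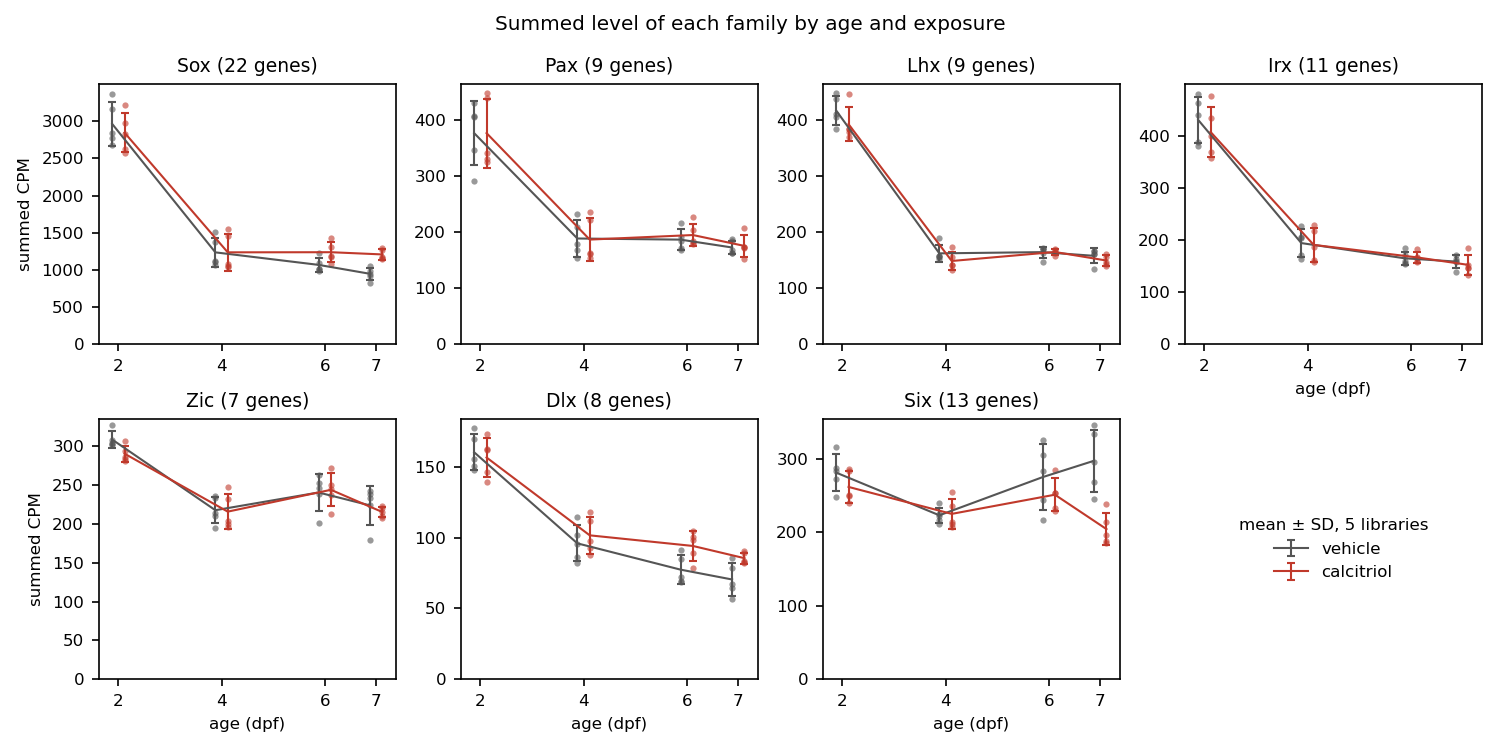
Summed CPM of each family (vertical axis, starting at 0) against age in dpf (horizontal axis); points are libraries, grey for vehicle and red for calcitriol, and lines join the means of 5 libraries with bars for the SD. The Sox, Pax, Lhx, Irx and Dlx sums drop mostly between 2 and 4 dpf. The Sox sum in vehicle goes from 2964 ± 291 to 1236 ± 195 and then to 947 ± 82.1 at 7 dpf. The Six-family sum in vehicle is 281 ± 25.1 at 2 dpf and 297 ± 42.5 at 7 dpf. That sum includes six7, which rose by 1.73 on the log2 scale between these ages, while 7 of the 13 members fell.

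Most of the decline fell into the first step. From 2 to 4 dpf, 67 members fell and 2 rose, against 30.2% and 32.1% of all genes. The fall was at least 2-fold in 32 members, against 6.70% of all genes, and left no overlap of libraries in 57, against 22.0%. From 4 to 6 dpf, 16 fell and 2 rose, against 17.8% and 18.1%. From 6 to 7 dpf, 3 fell and 2 rose, against 4.92% and 7.10%. In these fits, which had no block, the share of members called was above that of all genes for falls in the first step. Afterwards it was near or below that share in both directions. The medians of the members were -0.88, -0.14 and -0.09 in these 3 steps. Same-numbered vehicle libraries of different ages deviated together, and with the replicate number as a block 25 members fell and 5 rose from 4 to 6 dpf, against 24.1% and 23.0% of all genes, and 16 fell and 4 rose from 6 to 7 dpf, against 15.7% and 16.8%. In these blocked fits the share of members that fell was above that of all genes in both steps, and the share that rose was below it. The blocked fits kept all 18 and all 5 members called without the block.

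**Figure D3:**
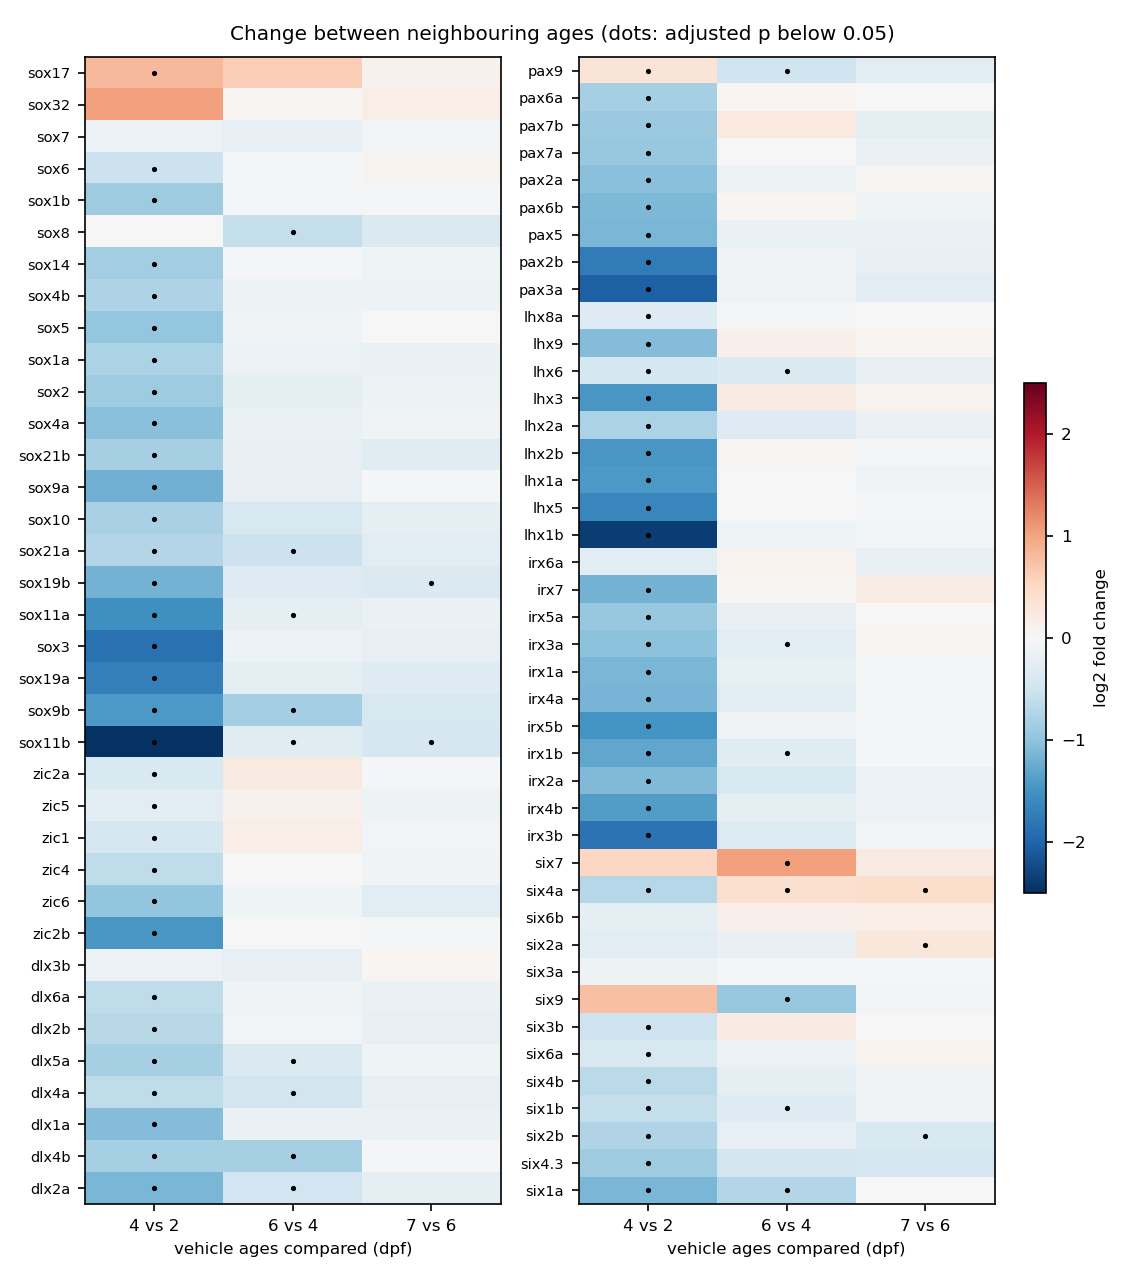
Log2 fold change of 78 members between neighbouring ages of the vehicle series (columns), coloured from blue (lower at the later age) to red (higher), with dots for an adjusted p below 0.05. The first column is mostly blue, and the later columns are pale, with 18 and 5 dots.

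Some members did not follow the common path. The pharyngeal gene pax9 read 9.88, 9.79, 10.5, 11.3 and 13.4 CPM at 2 dpf, 12.1, 11.3, 13.7, 15.0 and 16.8 CPM at 4 dpf and 5.62, 7.31, 6.81, 9.77 and 10.5 CPM at 7 dpf. It rose in the first step, by 0.32 ± 0.13 (adjusted p = 0.0445), and fell in the second, by 0.49 ± 0.14 on the log2 scale (adjusted p = 0.0172), with libraries of neighbouring ages overlapping in both steps. The other member that rose in the first step was sox17, at 0.82 ± 0.33 (adjusted p = 0.0490). Both rises were weakly held: the call of pax9 was lost in 10 of 19 other settings and that of sox17 in 12 of 18, in both cases without the shallow libraries and with RLE factors among them. The fall of pax9 in the second step was called in all 19.

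The muscle and placode gene six4a (chromosome 13) went down and came back. Its vehicle values were 25.6, 30.4, 27.1, 33.6 and 32.7 CPM at 2 dpf, 20.2, 16.9, 16.4, 18.3 and 20.0 CPM at 4 dpf and 28.0, 32.4, 31.1, 33.6 and 34.6 CPM at 7 dpf. The 4 dpf libraries lay below those of both other ages. The steps were -0.71 ± 0.10, 0.39 ± 0.11 and 0.43 ± 0.10 (adjusted p = 8.56e-05, 0.0133 and 0.0185). The first step kept its call in all 19 other settings. The second kept it in 18 and lost it without scaling factors. Six7 made most of its rise from 4 to 6 dpf, by 1.03 ± 0.21 (adjusted p = 0.00277). In the last step the called members were sox11b, at -0.41 ± 0.08, six2b, at -0.38 ± 0.10, and sox19b, at -0.37 ± 0.09, which fell, besides six4a and six2a, which rose, six2a by 0.28 ± 0.08. Over 19 other settings sox11b kept its call in all, sox19b in 17, six4a in 15, six2b in 11 and six2a in 8.

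The teleost genome carries many of these genes as a and b copies, and 23 such pairs were measured. Between 2 and 7 dpf both copies fell in 19 pairs and 1 copy fell in the other 4, which were the six2, six3, six4 and six6 pairs. Copies could still differ in size, as in the sox11, sox9 (-1.49 for sox9a and -2.74 for sox9b) and zic2 pairs. How reads shared by 2 copies were counted is not given in the sources used here, so values of close copies carry that uncertainty.

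Several members are also neighbours on their chromosome. In the RefSeq gene order of assembly GRCz12tu, 77 members were placed and 31 of them formed 17 pairs of adjacent protein-coding genes, all within 1 family. The log2 changes of neighbours differed by 0.01 to 1.97, with a median of 0.45. The closest pair was six4b and six1b, at -1.03 and -1.04, and the most distant was six1a and six4a, at -1.89 and 0.08. Dlx5a and dlx6a, at -1.35 and -0.95, and zic5 and zic2a, at -0.34 and -0.26, lay between these.

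The cofactors and other regulators of the same tissues give a frame for these counts. Between 2 and 7 dpf in vehicle 37.1% of all genes fell and 37.7% rose. In that comparison 6 of 7 Eya and Dach genes, whose proteins bind Six-family factors, fell, with a median of -0.63. Of 13 genes for LIM-domain binders and partners, 11 fell and 1 rose, with a median of -0.58. Among 31 neural progenitor and proneural regulators 29 fell and 1 rose, with a median of -1.97, and among 43 other patterning homeobox genes 40 fell and 1 rose, with a median of -1.35. The genes of dividing cells fell in all 13 tested members, with a median of -2.67, and their summed level went from 1750 to 2917 CPM across the vehicle libraries at 2 dpf to 425 to 658 CPM at 7 dpf. None of these 13 was at 0 in all libraries of 7 dpf. The part of dividing cells in the decline of the members was not tested. Markers of differentiating neurons moved both ways, 6 up and 6 down of 12, as did those of glia and myelin, 4 up and 5 down of 9. Lens genes rose in 8 of 10, kidney genes in 5 of 9 with 2 lower, islet genes in 4 of 8 with 3 lower and pituitary hormone genes in 3 of 5 with 2 lower. Cartilage genes fell in 6 of 7 with 1 higher, and pigment cell genes in 8 of 10.

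The question of the treatment series is whether calcitriol changed these genes at each age. At 2 dpf 0 of the 78 members tested was called by edgeR, 0 had an unadjusted p under 0.05, and DESeq2 and limma called 0; over all genes 0.00757% were called, cyp24a1 alone. Among the smallest p-values were those of dlx2a and six9, with log2 differences of -0.13 ± 0.07 and -0.63 ± 0.42. At 4 dpf 0 of 78 members was called, against 0.0% of all genes, and 1 member had an unadjusted p under 0.05. That member was dlx4a, an arch gene, with 14.8, 12.7, 12.8, 13.7 and 15.6 CPM in vehicle and 16.5, 18.5, 20.6, 18.8 and 16.1 CPM with calcitriol. Its groups did not overlap, as was so for 0.82% of all genes in that direction, and the difference was 0.39 ± 0.09 (adjusted p = 0.306). DESeq2 called 1 member at this age, when it called 0.768% of all genes. Libraries that share a number in the exon table deviated together at 2, 4 and 6 dpf. With those numbers as a block 2 members were called at 4 dpf, against 9.27% of all genes. Dlx4a was higher and lhx9 lower, by 0.17 on the log2 scale (adjusted p = 0.00862 and 0.0436). At 2 dpf 110 of 13203 genes had an unadjusted p under 0.05 in edgeR without the block. With the block 650 of 13403 did, 5 members among them, and 0 members were called. In limma 417 genes did, 9 members among them. The counts of 0 at these ages therefore do not show that the members were unchanged.

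At 6 dpf 4 of 79 members rose with calcitriol and 0 fell, against 4.37% and 6.32% of all genes (10.7% in either direction). Libraries did not overlap in 3 members upward and 1 downward, against 3.31% and 6.63% of all genes. The 4 were 3 Dlx genes and sox4a. Dlx4a (chromosome 3) read 10.8, 9.89, 8.66, 10.1 and 11.3 CPM in vehicle and 15.7, 18.3, 19.7, 17.6 and 13.9 CPM with calcitriol. All treated libraries were above all vehicle libraries, and the difference was 0.76 ± 0.11, or 1.70-fold (adjusted p = 0.00106). Dlx4b and dlx2a were higher by 0.42 ± 0.10 and 0.44 ± 0.10 (adjusted p = 0.0193 and 0.0160). Sox4a was at 224, 276, 261, 263 and 283 CPM in vehicle and at 357, 344, 376, 437 and 275 CPM with calcitriol. The shallow treated library alone lay within the vehicle range, and the difference was 0.47 ± 0.11 (adjusted p = 0.0197).

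Other settings changed that count. Without scaling factors 18 members were higher and 0 lower, against 12.8% and 4.51% of all genes, and the median of all genes then stood at 0.14. With the exon table's numbers as a block 19 members were higher and 0 lower, against 12.8% and 12.5% of all genes; the 4 named genes were among them. Without the shallow libraries 13 were called, all higher, when 26.1% of all genes were called in either direction. Leaving out treated replicate 4 left 1 call (6.28% of all genes called) and leaving out vehicle replicate 4 left 2 (6.47%). Leaving out treated replicate 5 gave 8 (17.1%). The calls of sox4a, dlx2a and dlx4b were lost in some of these settings, and that of dlx4a in none.

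At 7 dpf 13 members rose and 5 fell with calcitriol, against 14.6% and 14.2% of all genes. As a share, 18 of 79 is below the 28.8% of all genes called, so the number itself does not set these genes apart. Libraries did not overlap in 8 members upward and 4 downward, against 8.16% and 9.96% of all genes. Among the members called were 3 C-group Sox genes, 5 Dlx genes and 2 Lhx genes upward, and 2 eye genes of the Six-family group downward.

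**Figure D4:**
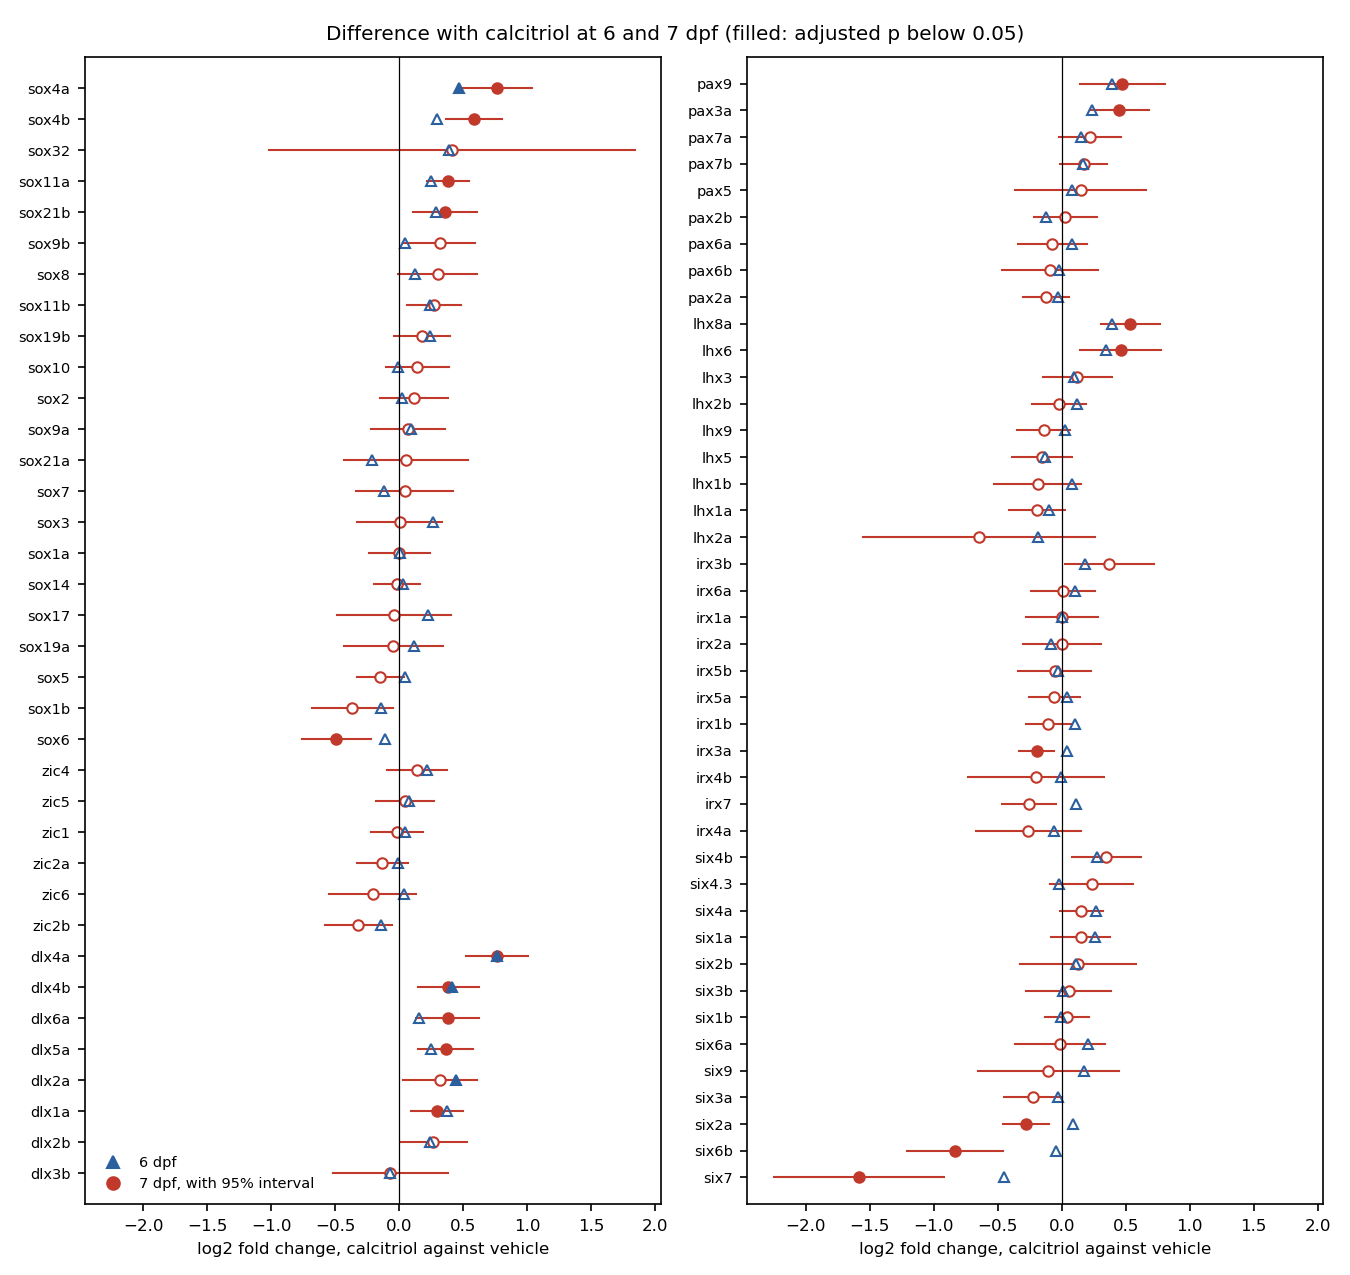
Log2 fold change with calcitriol of 78 members, at 6 dpf (blue triangles) and 7 dpf (red circles with the 95% interval); filled symbols have an adjusted p below 0.05 and genes are ordered by family and by the 7 dpf value. The filled circles on the right include sox4a at 0.77 and dlx4a at 0.76, and those on the left six7 at -1.59 and six6b at -0.84.

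Sox4a (chromosome 19) read 192, 261, 245, 261 and 241 CPM in vehicle at 7 dpf and 394, 404, 447, 477 and 305 CPM with calcitriol. No vehicle library reached the lowest treated one, and the difference was 0.77 ± 0.12, or 1.70-fold (adjusted p = 0.000981). Its paralog sox4b read 129, 142, 131, 157 and 125 CPM in vehicle and 189, 169, 216, 215 and 231 CPM with calcitriol. These groups did not overlap either, and the difference was 0.59 ± 0.10 (adjusted p = 0.00140). Sox11a, the other C-group gene called, read 70.7, 79.0, 79.3, 71.7 and 65.3 CPM in vehicle and 97.3, 91.7, 97.3, 97.5 and 90.4 CPM with calcitriol. Its treated libraries were all higher, by 0.38 ± 0.07 (adjusted p = 0.00301), while sox11b, at 0.27 ± 0.10, was not called (adjusted p = 0.0562). Another Sox gene, sox21b, was also higher, by 0.36 ± 0.11. One Sox gene was lower: sox6, a gene of cartilage and muscle fibre type, read 33.9, 50.0, 52.7, 47.9 and 51.5 CPM in vehicle and 38.4, 35.6, 33.2, 31.4 and 28.4 CPM with calcitriol. The shallow vehicle library lay among the treated ones, and the difference was -0.49 ± 0.12 (adjusted p = 0.0118).

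Dlx genes moved upward in 5 of 8 members. Dlx4a read 8.91, 7.46, 7.86, 8.56 and 10.1 CPM in vehicle and 14.2, 16.3, 13.6, 16.2 and 12.0 CPM with calcitriol, without overlap, a difference of 0.76 ± 0.11 (adjusted p = 0.000497). Dlx4b, dlx6a, dlx5a and dlx1a followed at 0.38 ± 0.11, 0.38 ± 0.11, 0.36 ± 0.10 and 0.30 ± 0.09. The adjacent genes dlx5a and dlx6a were thus both called. In the adjacent pair of dlx1a and dlx2a the latter, at 0.32 ± 0.13, was not called, although its difference was no smaller. Without the shallow libraries edgeR called both, dlx1a at 0.21 and dlx2a at 0.33 (adjusted p = 0.0133 and 0.00155). The difference for dlx3b was -0.07 ± 0.21. Over the family the median difference was 0.34, when that of all genes was 0.01.

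Among the Lhx genes lhx8a and lhx6, which act in ventral forebrain neurons born in the region of Dlx expression, were higher. Lhx8a read 2.89, 3.54, 3.24, 4.01 and 3.77 CPM in vehicle and 4.64, 5.45, 4.97, 5.09 and 5.04 CPM with calcitriol. The groups did not overlap, and the difference was 0.54 ± 0.11 (adjusted p = 0.00336). Lhx6 was higher by 0.46 ± 0.15 with overlapping libraries (adjusted p = 0.0345). Of the Pax genes pax9 was higher by 0.47 ± 0.15 (adjusted p = 0.0372) and pax3a by 0.45 ± 0.11 (adjusted p = 0.00851); the pax3a libraries read 2.99, 3.23, 3.86, 3.52 and 4.03 CPM in vehicle and 4.50, 4.75, 5.11, 4.61 and 5.00 CPM with calcitriol, with no overlap. One Irx gene was called, irx3a, lower by a log2 difference of -0.19 ± 0.06 (adjusted p = 0.0372), and 0 of the 7 Zic genes.

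Of the 13 Six-family members 3 fell. Six7 read 97.5, 99.6, 131, 152 and 168 CPM in vehicle and 53.8, 32.1, 27.9, 23.4 and 77.7 CPM with calcitriol. Every treated library was below every vehicle library, the shallow treated one being the highest of its group, and six7 was 3.00-fold lower, a log2 difference of -1.59 ± 0.30 (adjusted p = 0.00316). Six6b read 20.4, 20.0, 22.7, 29.0 and 27.3 CPM in vehicle and 14.1, 10.6, 11.8, 10.9 and 19.2 CPM with calcitriol. Again no libraries overlapped, with the shallow treated library highest, and the difference was -0.84 ± 0.17 (adjusted p = 0.00413). Its paralog six6a, at -0.01, was not called. The third was six2a, at -0.28 ± 0.08 with overlapping libraries (adjusted p = 0.0264).

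**Figure D5:**
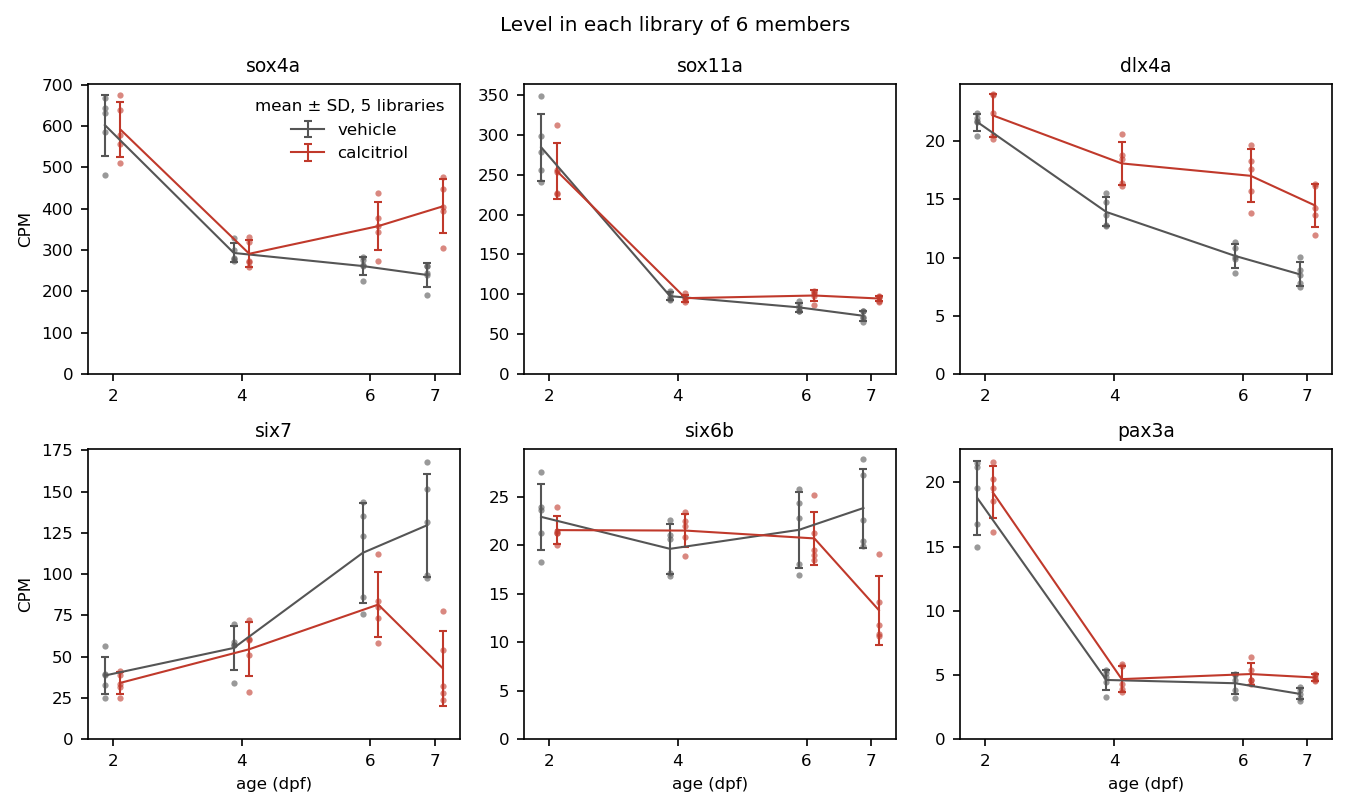
CPM of sox4a, sox11a, dlx4a, six7, six6b and pax3a (vertical axes, starting at 0) against age in dpf; points are libraries, grey for vehicle and red for calcitriol, and lines join means of 5 libraries with bars for the SD. The groups overlap at 2 dpf and do not at 7 dpf, with treated means of 406 against 239.8 CPM for sox4a and 43.0 against 129.6 CPM for six7.

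Markers of other cells were read at the same age, 7 dpf, when 14.6% of all genes rose and 14.2% fell. Of 13 genes of dividing cells, 12 rose with calcitriol, with a median of 0.75, and their summed level was 425 to 658 CPM in vehicle and 697 to 866 CPM with calcitriol, with none of the 13 at 0 in all libraries. Of 31 neural progenitor and proneural regulators 7 rose and 0 fell, among them the Notch target her6, by 0.63 ± 0.10, and the Notch ligand gene jag1b, by 0.48 ± 0.08. Of 43 other patterning homeobox genes 5 rose and 4 fell, with msxb and msxe higher by 0.70 ± 0.12 and 0.72 ± 0.18. Among the Six-family partners eya2 rose by 0.64 ± 0.07 and eya4 fell by 0.28 ± 0.07 on the log2 scale. A list of photoreceptor genes, chosen after values were seen, fell in 11 of 14 tested members and rose in 0, with a median of -1.31, and its sum over 16 genes was 4653 to 7488 CPM in vehicle and 2130 to 3454 CPM with calcitriol. No gene of that list was at 0 in all libraries of 7 dpf, and 2 were below 1 CPM in each. The green cone opsin gene opn1mw1 was 9.21-fold lower and the blue cone opsin gene opn1sw2 4.56-fold lower. The retinal factor crx, at -0.14 ± 0.09, was not called. Of the markers of other tissues, when 14.2% of all genes were lower, 2 of 12 neuron genes, 2 of 9 glia and myelin genes, 4 of 10 lens genes, 1 of 5 pituitary hormone genes, 5 of 8 islet genes, 2 of 10 pigment cell genes and 4 of 9 kidney genes were lower with calcitriol and 0 higher. Of 7 cartilage genes 4 fell and 1 rose, and of 13 LIM-domain partner genes 1 fell, isl2b. The part of these cell types in the members' differences was not tested.

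As a share of all counts the members stood higher with calcitriol, at 0.208 to 0.239% against 0.163 to 0.199% in vehicle at 7 dpf, without overlap. After TMM scaling their summed level overlapped, at 2053 to 2266 CPM against 1744 to 2206 CPM. Without scaling factors 26 members were higher and 2 lower, against 30.7% and 8.56% of all genes, and the median of all genes then stood at 0.18. The Sox sum did not overlap after scaling, at 1143 to 1300 CPM with calcitriol against 826 to 1046 CPM. Neither did the Six-family sum, at 185 to 238 CPM against 245 to 346 CPM. These sums do not stand for a shift of every member. Of the 13 Six-family members 3 fell and 7 had a positive difference, with a median of 0.04 and six7 lowest at -1.59. Of the 22 Sox members 4 rose and 1 fell, with a median of 0.09 and sox4a highest at 0.77. Without the shallow libraries 20 members were higher and 19 lower, and 56.6% of all genes were called; all 18 members named above remained among them. Leaving out vehicle replicate 2 gave 11 calls, when 21.0% of all genes were called. Leaving out treated replicate 3 or 4 gave 10 (20.6% and 20.8% of all genes) and treated replicate 5 gave 29 (42.2%). The number of members called thus moved with that of all genes. In all 20 settings tried sox4a, sox4b, sox11a, dlx4a, lhx8a, pax3a, six7 and six6b stayed called. The other 10 calls were each lost in some: those of six2a and irx3a in 9 settings, lhx6 in 8, pax9 and dlx1a in 7, sox21b in 6, dlx4b in 5, dlx5a in 3 and dlx6a and sox6 in 2. Of the 5 Dlx calls, then, dlx4a alone stood in every setting. The settings include a block by the title numbers, which did not pair treated with vehicle libraries.

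The difference between ages was tested in a model over all 40 libraries. By the labels calcitriol was given from 24 h on, so age and length of exposure cannot be told apart in this test. The response of 7 of 79 members differed between ages, against 7.79% of all genes. By adjusted p they were dlx4a (0.000588), sox4a (0.00117), six6b (0.00287), sox11a (0.00612), six7 (0.0140), dlx4b (0.0345) and dlx2a (0.0457). The log2 differences with calcitriol at 2, 4, 6 and 7 dpf were 0.03, 0.39, 0.76 and 0.76 for dlx4a and -0.03, -0.003, 0.47 and 0.77 for sox4a. For six7 they were -0.18, -0.01, -0.45 and -1.59, and for six6b -0.09, 0.14, -0.05 and -0.84. For six7 and six6b the value at 7 dpf was the one that was called, while dlx4a was called at 6 and 7 dpf with differences of like size. At 6 or 7 dpf 19 members were called in all, and 3 of them, dlx4a, dlx4b and sox4a, at both ages. Without the shallow libraries the response of 11 members differed between ages, when 22.7% of all genes did. With the exon table's numbers as a block that of 19 did, when 26.7% of all genes did. All 7 were among them in both, and in both the members' share was below that of all genes. With the title numbers as a block 5 of the 7 stayed called, when 5.20% of all genes were. The calls of dlx4b and dlx2a were lost there, but the title numbers did not pair treated with vehicle libraries. The other 5 kept theirs in all 9 other settings.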

How the data were processed

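Counts of reads per gene, deposited by the authors without normalization per the file headers, were used as they stand; the submitters' processing notes name CASAVA 1.4 and HTSeq 0.5.3p3, and the aligner is not given in the sources used here. Reads were 51 bases long from both ends, of poly-A RNA. The deposited exon counts served only to read that table's replicate numbers: treated replicate 5 is number 1 there. All 80 pairs of libraries within groups differed beyond sampling noise (chi-square divided by its degrees of freedom was at least 21.5). The pairs were not equally far apart. With calcitriol at 2 dpf this ratio was 29.9 for replicates 1 and 2 and 40.0 for replicates 3 and 4. The other pairs of that group lay between 110 and 299. In vehicle at 2 dpf it was 77.3 for replicates 2 and 3 and 63.2 for 4 and 5, against 201 to 341 elsewhere. In vehicle at 4 dpf these pairs had 74.5 and 43.6, against 160 to 384. With calcitriol at 4 dpf replicates 1 and 2 had 43.6 and 3 and 4 had 28.8, against 130 to 304. Whether the 5 libraries of a group are independent of each other was not tested. If close pairs are not, n = 5 overstates the units, and standard errors and adjusted p-values come out too small.

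The members and gene lists were chosen with earlier results of these data known. Each comparison was fitted alone in edgeR 4.0.16 (R 4.3.3): filterByExpr, TMM, robust quasi-likelihood fit, Benjamini-Hochberg adjustment over all genes, threshold 0.05. Standard errors are Wald errors of that fit. DESeq2 1.42.0 and limma 3.58.1 (voom with quality weights) were alternatives, and the steps were tested on simulated data. The simulated libraries were independent of each other, so that test does not cover libraries that deviate together. Of 79 symbols 78 matched RefSeq; six4.3 matched as a synonym. Named genes are the 2 of each family highest in CPM, its largest falls (up to 3) and rises (up to 2) with age, up to 6 called each way with calcitriol, and the 5 smallest interaction p-values; members that held with age, the other called members and 1 member of each named pair of copies or neighbours were named beyond that, after their values were seen. Of 13 lists, those of neurons, glia, dividing cells, cartilage, lens, pituitary, islet, pigment, kidney, Eya and Dach genes, LIM partners, neural progenitors and other homeobox genes, with 220 entries, 180 were in the table and 0 were members.

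Replicate numbers of the titles paired the vehicle libraries across ages (lowest correlation of deviations 0.178). Own partners matched best for 4, 3 and 2 of 5 libraries in the 3 steps, and for 4 from 2 to 7 dpf. The exon table's numbers paired treated and vehicle libraries at 2, 4 and 6 dpf (lowest 0.238), and the title numbers did not. By the exon table's numbers 3, 2 and 3 of 5 matched their own partner best. Shared deviation is thus shown, but a match of single libraries is not. Pairing required a lowest correlation of at least 0.1. At 7 dpf the exon table's numbers missed this limit with 0.095 for 1 pair. The other pairs of that age had 0.194 to 0.579, and 4 of the 5 matched their own partner best. A member is counted in the totals and is not reported by itself here.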

Additional observations from a re-analysis of the deposited data

Results flagged for a closer look

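Of 352 groups of 5 libraries checked for the 44 named members, 25 held a library farther from the others than Dixon's 95% limit allows, when chance gives about 1 in 20. In 21 of the 25 that library was the shallow one. The values below are CPM, with the median of the group beside each.

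In vehicle at 7 dpf the shallow library was low for dlx1a (9.26, median 12.1), lhx1a (36.6, median 41.9), sox4a (192, median 245), zic1 (55.9, median 75.3), zic4 (10.3, median 15.0) and sox6 (33.9, median 50.0). In other vehicle groups it was low for zic2a at 6 dpf (52.9, median 65.7) and high for zic2b at 2 dpf (36.3, median 24.5).

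With calcitriol at 2 dpf the shallow library was high for lhx1b (27.9, median 21.5), lhx5 (85.3, median 70.1), sox11b (669, median 473) and zic2a (75.6, median 65.4). At 4 dpf it was high for six4.3 (10.3, median 7.51). At 6 dpf it was low for six4.3 (3.60, median 6.09), zic4 (13.6, median 18.6) and lhx6 (6.72, median 10.0). At 7 dpf it was low for dlx2a (7.29, median 10.4) and six4.3 (3.61, median 5.29), and high for irx3b (19.5, median 12.0), pax5 (3.66, median 2.70) and sox19a (40.5, median 26.0).

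The other 4 were irx3a in treated replicate 2 at 4 dpf (36.4, the lowest, median 37.9), lhx5 in vehicle replicate 5 at 6 dpf (26.1, the highest, median 24.5), pax6a in treated replicate 4 at 6 dpf (62.7, the highest, median 52.5) and sox17 in vehicle replicate 2 at 4 dpf (0.890, the highest, median 0.552).

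For 7 members the response to calcitriol differed between ages by the interaction test: dlx4a (adjusted p = 0.000588), sox4a (0.00117), six6b (0.00287), sox11a (0.00612), six7 (0.0140), dlx4b (0.0345) and dlx2a (0.0457). Age and length of exposure cannot be told apart in this test.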

How the results depend on the processing

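Over the single members named, 1034 of 1089 recomputed results in 59 sets kept their direction and their side of the threshold, 47 lost a call, 8 gained one and 0 reversed. The total of calls between 2 and 4 dpf, between 2 and 7 dpf and at 2 dpf with calcitriol stayed within 1.5 times. The count of rises between 2 and 4 dpf, 2 in the first fit, did not. It was 0 with RLE factors or without 2 dpf replicate 1, 3 or 4 or 4 dpf replicate 3, 4 or 5. Without the shallow libraries it was 1, which was six7, and both pax9 and sox17 were lost. It was 4 without scaling factors or with the replicate block and 5 with voom. The share of all genes called is given in brackets below. With 1 replicate left out it ran from 6.28 to 17.1% at 6 dpf and from 20.6 to 42.2% at 7 dpf with calcitriol. In vehicle it then ran from 28.3 to 44.5% from 4 to 6 dpf and from 6.88 to 19.9% from 6 to 7 dpf. With calcitriol at 4 dpf DESeq2 called 1 member (0.768%) and the replicate block by the exon table's numbers 2 (9.27%). At 6 dpf (4 called) there were 18 without scaling factors (17.4%), 7 with DESeq2 (16.3%), 19 with limma voom (31.8%), 13 without the shallow libraries (26.1%), 1 with the replicate block by title numbers (6.79%), 19 with that by the exon table's numbers (25.3%) and 1 to 8 when 1 replicate was left out. At 7 dpf (18 called) these settings gave 28 without scaling factors (39.3%), 45 with voom (61.7%), 39 without the shallow libraries (56.6%), 10 with the title block (18.5%) and 10 to 29 without 1 replicate; the exon table's numbers, whose lowest correlation at this age was 0.095, gave 24 (37.9%). In vehicle from 4 to 6 dpf (18 called) there were 46 without scaling factors (45 lower, 1 higher; 50.0%), 30 with the replicate block (47.0%) and 11 to 23 without 1 replicate, the low end without replicate 3 of 6 dpf. From 6 to 7 dpf (5 called) there were 8 without scaling factors (7 lower, 1 higher; 14.2%), 13 with voom (34.7%), 20 with the replicate block (32.4%), 3 in a fit of all 40 libraries (8.76%) and 2 to 5 without 1 replicate; 2 or 3 of the 5 were called, and no other member, without any of 6 dpf replicates 3, 4 or 5 or of 7 dpf replicates 2 to 5. Between 2 and 4 dpf 64 to 68 (57.4 to 63.1%) and between 2 and 7 dpf 69 to 73 (71.4 to 76.3%) were called without 1 replicate. For the test between ages (7 called) there were 12 without scaling factors (12.4%), 21 with voom (32.2%) and 11 without the shallow libraries (22.7%). There were 19 with the exon table's block (26.7%) and 5 with the title block (5.20%), which lost dlx4b and dlx2a. The title numbers did not pair treated with vehicle libraries. Dropping the scaling factors moved the median of all genes to 0.20 from 2 to 4 dpf and to -0.23 from 4 to 6 dpf. The replicate block changed no other call count by over 1.5 times. Between 2 and 7 dpf the call of irx6a was lost in 8 of 19 other settings and those of pax9 and six3a in 4 each. The call of zic2a was lost in 1, a stricter count filter. The causes were not tested.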
